A study of Mus musculus with 10 samples.

Results

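Respiratory complex I, NADH:ubiquinone oxidoreductase, is the entry point of the mitochondrial respiratory chain, and the genes described here encode its nuclear subunits. They were chosen by name, as all genes with a single-gene probe whose symbol reads Nduf followed by a, b, c, s or v and a number, with the probe of highest mean intensity taken for each gene. This gave 31 genes of the 18012 genes with a tested single-gene probe. Of these, 29 encode complex I subunits. The other two are Ndufs5-ps, which RefSeq lists as a transcribed pseudogene of the subunit gene Ndufs5, and Ndufa4l2, a paralogue of Ndufa4, whose protein is now placed in cytochrome c oxidase. All 31 lay above the median probe level (0.03 on the log2 scale), so none was lost to low values. A further 4 probes that carry the name of an Nduf subunit together with those of other genes were not used.

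The series measured liver RNA on 1-colour CodeLink oligonucleotide arrays, 1 array per mouse. In the ASO group, 5 male C57Bl/6 mice received an ASO, an antisense oligonucleotide directed at miR-122, by intraperitoneal injection over 4 weeks, with 2 doses of 50 mg/kg each week. The ASO was an RNA oligonucleotide with 2′-O-methoxyethyl sugars and a phosphorothioate backbone. In the saline group, 5 mice were injected with saline on the same schedule, and their labels give neither sex nor strain. The livers of both groups were collected 2 days after dosing ended, and the labels state no age. The comparison asks which liver transcripts change when miR-122, an abundant hepatocyte microRNA, is blocked. Because the control was saline, effects of the oligonucleotide chemistry and of blocking miR-122 cannot be told apart.

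Complex I takes electrons from NADH, passes them through a flavin and a chain of iron-sulfur clusters to ubiquinone, and pumps protons across the inner mitochondrial membrane. It is L-shaped. The peripheral arm in the matrix holds the NADH-oxidising N module and the ubiquinone-reducing Q module, and the membrane arm holds the proton channels. Its core subunits are conserved from bacteria, and the accessory subunits around them are needed mainly for assembly and stability. Hepatocytes are rich in mitochondria, and their fatty acid oxidation delivers much of its reducing power to this complex as NADH.

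Most complex I transcripts were lower in the livers of ASO-treated mice by a small amount, and no single gene passed the test across all probes. Of the 31 genes 28 had a lower mean in the ASO group and 3 a higher mean, where 50.5% of all probes were lower. The median difference, ASO minus saline, was -0.36 on the log2 scale over the 31 genes and -0.35 over the 29 subunits, against 0.00 over all probes and -0.11 over genes above the median probe level. By limma with Benjamini-Hochberg adjustment 0 of 31 genes passed an adjusted p of 0.05, where 0.0637% of all probes did, and the smallest adjusted p among them was 0.237. At an unadjusted p under 0.05, 7 genes were lower (22.6%) and 0 were higher, against 6.66% and 4.58% of all probes. In 3 genes every ASO liver lay below every saline liver, against 1.43% of all probes, and in 0 genes above, against 0.939%. Under quantile normalization that count of 3 became 1. Over the 29 subunits alone, 5 were lower at an unadjusted p under 0.05 (17.2%) and 0 higher. In 2 of them every ASO liver lay below every saline liver.

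High-intensity probes leaned lower as a whole, which sets a second background for these genes. Among the 913 other genes with a mean level between 5.58 and 7.49, the members' own middle range, 64.1% had a lower mean in the ASO group and the median difference was -0.10. At an unadjusted p under 0.05, 10.8% of them were lower and 3.18% higher, and in 2.08% all ASO livers lay below all saline livers. This range was chosen after the data were seen. Bulk liver RNA cannot tell fewer cells of a type from less of a transcript per cell.

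**Figure D1:**
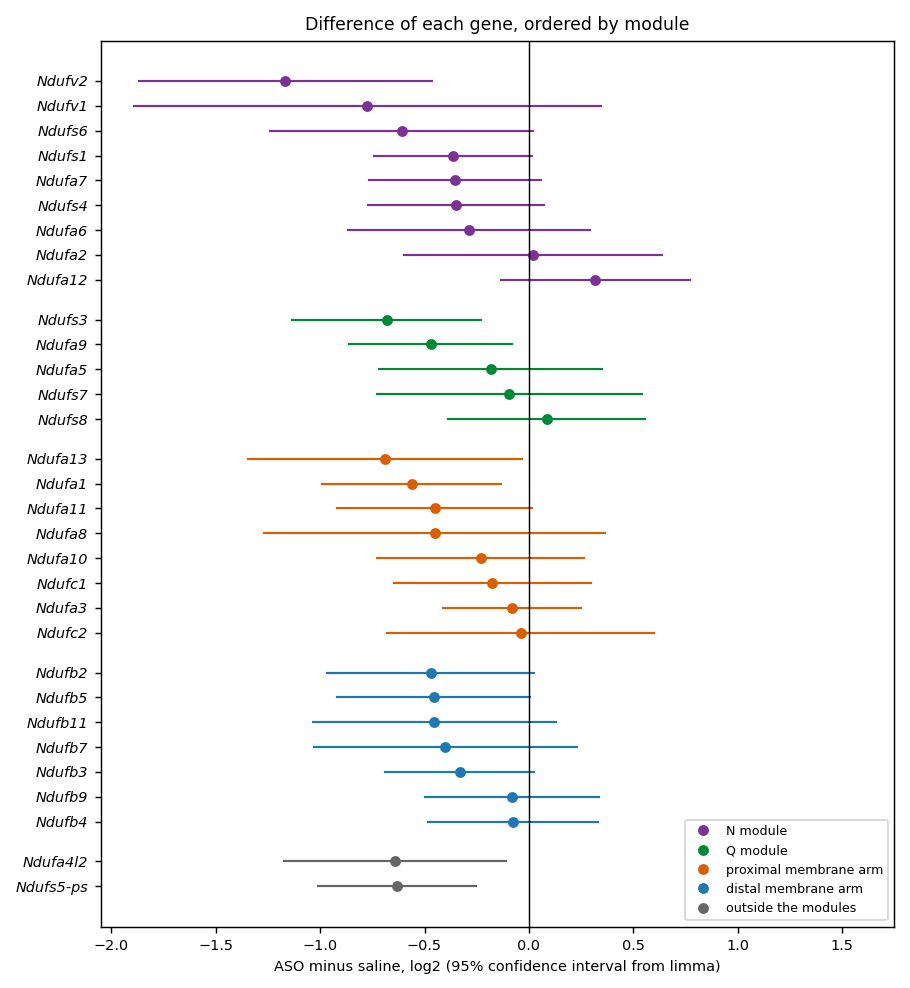
Difference of each of the 31 genes, ASO minus saline, on the log2 scale (horizontal axis), with the 95% confidence interval from limma as a line and genes ordered by module down the page. Points run from -1.17 for Ndufv2 to 0.32 for Ndufa12, and 28 of 31 lie left of 0.

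The shift was spread over the arrays in an uneven way. Each gene's values were set against that gene's mean over the 10 arrays, and the median of these deviations over the 29 subunits was taken per liver. It was -0.20, -0.09, -0.12, -0.42 and 0.05 in ASO replicates 1 to 5, and 0.40, 0.14, 0.09, 0.29 and 0.21 in saline replicates 1 to 5. The groups did not overlap, but ASO replicate 5 and saline replicate 3 lay close together. ASO replicate 4 held the lowest value of all 10 arrays for 11 of the 29 subunits, and saline replicate 1 held the highest for 14. The same median was taken over the 913 other genes of similar intensity. It ran from -0.09 to 0.04 in ASO livers and from 0.07 to 0.10 in saline livers. These ranges did not overlap either, and the shift was in the same direction but smaller.

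**Figure D2:**
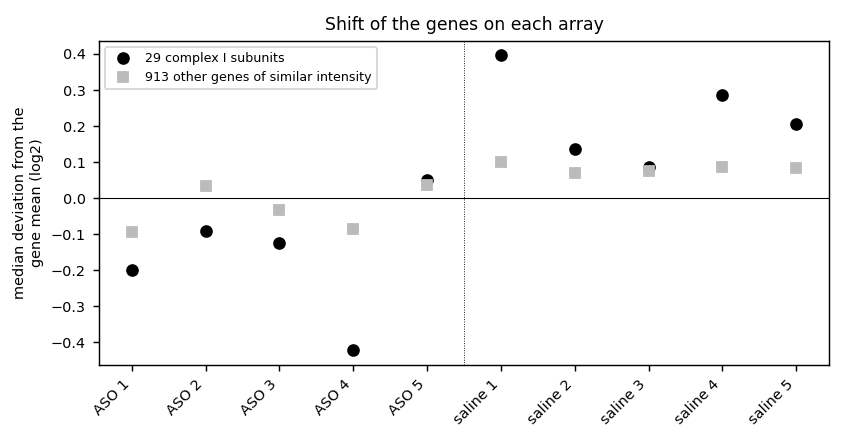
Median deviation from the gene mean on each array, on the log2 scale, for the 29 complex I subunits (black circles) and for 913 other genes of similar intensity (grey squares), with the 5 ASO arrays on the left. The subunits lie between -0.42 and 0.05 on ASO arrays and between 0.09 and 0.40 on saline arrays.

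Saline replicate 1 stood apart in its brightest values, which reached 541.6 against 1198 to 2333 on the other arrays, while array medians were 1.03 to 1.05 throughout. Without saline replicate 1, 26 of the 31 genes were lower and 5 higher, and the median was -0.34. At an unadjusted p under 0.05, 5 genes were then lower, against 4.61% of all probes. Without ASO replicate 5 the count lower at that p was 12, against 8.42% of all probes. Without ASO replicate 4 it was 7, against 6.44% of all probes, with a median of -0.29. No member passed the adjusted threshold without any single array, where the lowest adjusted p was 0.161.

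The RNA carried the markers of liver. All 7 measured of 10 listed hepatocyte markers were above the median probe level, and their summed intensity was 4200 to 5650 on ASO arrays and 2260 to 4750 on saline arrays. Of these 7 markers 3 were lower and 4 higher, with Alb, serum albumin, at 0.57 ± 0.27 (log2 difference ± SE). Alb, Apoa1 and Ttr had their lowest values, 8.89, 8.86 and 8.88 in log2, on saline replicate 1, whose brightest values were low. In the other saline livers Alb was 9.65 to 10.33. The sums include saline replicate 1. Summed Kupffer cell markers (8 of 10 measured, 5 lower) were 59.9 to 344 in ASO livers and 143 to 349 in saline livers. For endothelial markers (8 of 8, 3 lower) the sums were 46.6 to 158 in ASO livers and 63.8 to 122 in saline livers, and for stellate cell markers (8 of 8, 6 lower) 70.6 to 99.9 in ASO livers and 88.8 to 111 in saline livers. Bile duct markers (4 of 5, 2 lower) summed to 5.31 to 7.25 in ASO livers and 6.05 to 7.65 in saline livers. Lymphocyte markers (8 of 9, 6 lower) summed to 8.25 to 11.5 in ASO livers and 9.98 to 15.8 in saline livers, and red cell markers (2 of 6, 1 lower) to 30.7 to 85.5 in ASO livers and 49.3 to 103 in saline livers. No marker was at the floor on all 10 arrays, and no marker passed the adjusted threshold. The ranges of the groups overlapped for every list, and the part of cell composition in the complex I values was not tested.

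The promoters of these genes were searched for sequence features that the choice by name did not use, and most held neither the NRF1 nor the YY1 letters. RefSeq promoter windows of build GRCm38.p6, 250 bases before to 50 bases after a transcription start, were matched for 26 of the 31 genes in 28 windows. Letters were searched on both strands for 4 factors known to act on respiratory genes. The letters GCGCNTGCG, the core of the motif bound by NRF1 (nuclear respiratory factor 1), were in 8 of 28 windows (28.6%) against 6.31% of all 32851 windows. The windows of Ndufa5 overlap and hold the same site, so by gene the letters were in 7 of 26 (26.9%). These 9 letters replaced a form with 1 more base after the 10-letter form had been searched, and the 10-letter form was in 7 of 28 windows (25.0%) against 4.6%, leaving out Ndufa12. The letters AAGATGGC, bound by YY1, were in 6 of 28 (21.4%) against 2.75%. The ETS letters CCGGAAG, bound by GABP among others, were in 3 of 28 (10.7%) against 8.86%, and the Sp1 letters GGGCGG in 12 of 28 (42.9%) against 35.7%, both near the share of all windows. A match describes the letters only, and no binding was measured.

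The 30 bases around the NRF1 letters are shown for the 7 genes that hold them, because these letters were found in a larger share of the family's promoters than of all promoters. The motif is in capitals and each sequence is read 5′ to 3′ on the gene's strand. The site nearest the start is given, and none overlapped another of the motifs searched.
Ndufa11, chr17:56717693-56717722, plus strand: ctgcactgcgCGCATGCGCgcacgccttgt
Ndufs6, chr13:73328479-73328508, minus strand: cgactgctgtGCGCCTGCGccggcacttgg
Ndufa12, chr10:94198905-94198934, plus strand: ctccagctctGCGCCTGCGtagaacgacct
Ndufa8, chr2:36049328-36049357, minus strand: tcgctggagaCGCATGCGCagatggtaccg
Ndufa6, chr15:82354249-82354278, minus strand: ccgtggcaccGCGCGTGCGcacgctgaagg
Ndufa5, chr6:24527696-24527725, minus strand: gtgtgagctgCGCAGGCGCaaatctacctc
Ndufb4, chr16:37654370-37654399, minus strand: ctcatatccgCGCAGGCGCagatgtgcgcc
In Ndufa11, Ndufa8, Ndufa5 and Ndufb4 the site shown matches on the opposite strand. In Ndufa11 an overlapping match also lies on the gene's own strand. The 7 genes ran from -0.61 for Ndufs6 to 0.32 for Ndufa12 in the liver comparison, within a family range of -1.17 to 0.32. Ndufa12 matches the 9 letters searched but not the 10-letter form.

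The YY1 letters sat in a narrow place. In all 6 genes they were on the gene's own strand and began 22 to 35 bases after the start, and the letters include an ATG. The 30 bases around each are shown with the motif in capitals.
Ndufa9, chr6:126849097-126849126, minus strand: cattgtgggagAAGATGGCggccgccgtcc
Ndufs6, chr13:73328433-73328462, minus strand: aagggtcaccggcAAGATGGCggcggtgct
Ndufs4, chr13:114388045-114388074, minus strand: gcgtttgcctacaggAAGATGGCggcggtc
Ndufc1, chr3:51408915-51408944, minus strand: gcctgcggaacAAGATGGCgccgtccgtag
Ndufa3, chr7:3617384-3617413, plus strand: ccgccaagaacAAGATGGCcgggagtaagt
Ndufs7, chr10:80249462-80249491, plus strand: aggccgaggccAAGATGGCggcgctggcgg
Differences between ASO and saline livers for these genes ran from -0.61 for Ndufs6 to -0.08 for Ndufa3. Ndufs6 was the 1 gene with both motifs.

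In the N module, which oxidises NADH, 7 of the 9 genes measured had a lower mean, and the median difference was -0.35. Of these 9 genes 1 (11.1%) was lower at an unadjusted p under 0.05, against 6.66% of all probes and 10.8% of the genes of similar intensity. That gene was Ndufv2, an iron-sulfur core subunit at the tip of the peripheral arm. Its log2 intensity was 6.52, 6.07, 4.98, 5.71 and 6.54 in ASO livers, against 7.82, 7.32, 6.93, 6.64 and 6.95 in saline livers. The groups did not overlap, and ASO replicate 3 was the lowest. The mean was 5.97 ± 0.65 in ASO livers and 7.13 ± 0.45 in saline livers (SD, n = 5 each), a difference of -1.17 ± 0.32 (SE, limma adjusted p = 0.238). This put the ASO mean at 44.5% of the saline mean, the largest difference below 0 among the 31 genes.

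Ndufv1, the core subunit that binds NADH and the flavin next to Ndufv2, had the second largest difference and the widest spread. It stood at 5.34 ± 0.88 in ASO livers and 6.12 ± 1.001 in saline livers (SD, n = 5 each), a difference of -0.77 ± 0.51 (SE, limma adjusted p = 0.594). ASO livers ran from 4.56 to 6.33 and saline livers from 4.38 to 6.80, and saline replicate 5 was the lowest of all. Without that array the difference was -1.21. Ndufs1, the largest core subunit, differed by -0.36 ± 0.17, and Ndufs6, a small zinc-binding subunit, by -0.61 ± 0.29, or -0.35 without ASO replicate 4. Ndufs4, whose loss causes Leigh-like disease in mice, differed by -0.35 ± 0.19, Ndufa7 by -0.35 ± 0.19 and Ndufa6, a protein of the LYR family, by -0.29 ± 0.27. For each of these 5 genes the groups overlapped. Ndufa6 was -0.07 without ASO replicate 2.

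Ndufa12 and Ndufa2 were the N module genes with a higher mean in the ASO group. Ndufa12, which the assembly factor Ndufaf2 resembles, had 8.41, 8.28, 8.46, 8.12 and 8.54 in ASO livers, against 8.17, 7.99, 7.91, 7.52 and 8.63 in saline livers. The highest value belonged to a saline liver and the lowest to another, so the ASO values lay inside the saline range. Its difference of 0.32 ± 0.21 (SE, limma adjusted p = 0.589) was the highest of the 31 genes and became 0.19 without saline replicate 4. A second, dimmer Ndufa12 probe gave -0.02 ± 0.22. Ndufa2, a subunit with a thioredoxin-like fold, had 8.55, 7.51, 7.53, 7.33 and 7.93 in ASO livers, against 8.004, 7.91, 6.97, 8.18 and 7.70 in saline livers. Its groups overlapped throughout, with a difference of 0.02 ± 0.28 and a 95% interval from -0.60 to 0.64.

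In the Q module, which hands electrons to ubiquinone, 4 of the 5 genes measured had a lower mean, and the median difference of -0.18 became -0.01 without saline replicate 1 and -0.03 under quantile normalization. Ndufs3, a core subunit at the base of the peripheral arm, had 5.79, 5.43, 5.66, 4.73 and 5.61 in ASO livers, against 6.18, 5.94, 6.20, 6.18 and 6.13 in saline livers. The groups did not overlap, and the saline values lay close together except for replicate 2. The mean was 5.45 ± 0.42 in ASO livers and 6.13 ± 0.11 in saline livers (SD, n = 5 each), a difference of -0.68 ± 0.21 (SE, limma adjusted p = 0.273), or 62.4% of the saline level. A second Ndufs3 probe of lower mean intensity gave -0.22 ± 0.31, with overlapping groups.

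Ndufa9, an accessory subunit with a nucleotide-binding fold at the junction of the arms, had 6.48, 6.78, 6.24, 6.15 and 6.69 in ASO livers, against 7.10, 6.99, 7.01, 6.98 and 6.63 in saline livers. A single saline liver, replicate 5, fell inside the ASO range, and the other 4 lay above it. The difference was -0.47 ± 0.18 (SE, limma adjusted p = 0.366). Ndufs8, a core subunit with iron-sulfur clusters, had 7.27, 8.13, 7.67, 7.42 and 7.54 in ASO livers, against 7.21, 7.71, 7.61, 7.93 and 7.15 in saline livers. Here the groups overlapped almost wholly and the difference was 0.09 ± 0.22, with a 95% interval from -0.39 to 0.56. Ndufs7, the core subunit with the last cluster before ubiquinone, differed by -0.09 ± 0.29 and Ndufa5 by -0.18 ± 0.24. Ndufa5 was at -0.014 without saline replicate 1 and -0.35 without saline replicate 3.

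Among the 6 measured core subunits of both modules 5 were lower, with a median of -0.52. At an unadjusted p under 0.05, 2 of the 6 (33.3%) were lower, Ndufv2 and Ndufs3, against 6.66% of all probes and 10.8% of the genes of similar intensity.

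Every measured gene of the membrane arm had a lower mean in the ASO group, as did 64.1% of the genes of similar intensity. Under some alternatives Ndufc2, Ndufb4 or Ndufb9 had a higher mean. In the proximal part of this arm 8 of 8 measured genes were lower (median -0.34, or -0.12 without ASO replicate 4). Of these 8 genes 2 (25%) were lower at an unadjusted p under 0.05, against 6.66% of all probes and 10.8% of the genes of similar intensity. Ndufa1, a small X-linked subunit that spans the membrane once, had 7.38, 6.99, 7.25, 6.87 and 7.75 in ASO livers, against 7.95, 7.82, 7.66, 8.03 and 7.59 in saline livers. ASO replicate 5 was the sole ASO liver to reach the saline range. The mean was 7.25 ± 0.35 in ASO livers and 7.81 ± 0.19 in saline livers (SD, n = 5 each), a difference of -0.56 ± 0.20 (SE, limma adjusted p = 0.322).

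Ndufa13, also known as GRIM-19, had 6.08, 7.10, 7.003, 8.001 and 7.36 in ASO livers, against 8.17, 7.88, 7.67, 7.61 and 7.66 in saline livers. The ASO livers spread widely, replicate 1 lying lowest and replicate 4 inside the saline range. The difference of -0.69 ± 0.30 (SE, limma adjusted p = 0.427) was -0.43 without ASO replicate 1 and -0.91 without ASO replicate 4. Ndufa11 differed by -0.45 ± 0.21, and Ndufa8, a protein with paired cysteine motifs, by -0.45 ± 0.37. Without ASO replicate 4 these were -0.28 and -0.15. Ndufa10, which has a kinase-like fold, differed by -0.23 ± 0.23 (-0.06 without ASO replicate 4), Ndufc1 by -0.18 ± 0.22 (-0.09 without ASO replicate 4) and Ndufc2 by -0.04 ± 0.29.

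Ndufa3, a small membrane subunit, was among the 3 probes of highest mean in the family. It had 8.0004, 8.17, 8.50, 8.21 and 8.33 in ASO livers, against 8.26, 8.17, 8.37, 8.43 and 8.38 in saline livers. The groups overlapped, with a difference of -0.08 ± 0.15 and a 95% interval from -0.41 to 0.25. Probe intensities do not rank the abundance of different transcripts.

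In the distal part of the membrane arm 7 of 7 measured genes were lower (median -0.40). Of these, 0 were lower at an unadjusted p under 0.05, against 6.66% of all probes. Ndufb5 had 6.43, 6.63, 5.95, 6.27 and 6.73 in ASO livers, against 7.16, 7.04, 6.53, 7.09 and 6.47 in saline livers. Saline replicates 3 and 5 lay inside the ASO range and the other 3 above it. The difference was -0.46 ± 0.21 (SE, limma adjusted p = 0.450). Ndufb2 differed by -0.47 ± 0.23, Ndufb11, which is X-linked, by -0.45 ± 0.27 (-0.30 without saline replicate 4), Ndufb7 by -0.40 ± 0.29, Ndufb3 by -0.33 ± 0.16 and Ndufb4 by -0.08 ± 0.19. Ndufb9, another LYR family protein, had 8.77, 9.17, 8.92, 8.58 and 8.91 in ASO livers, against 8.52, 8.79, 9.07, 9.06 and 9.33 in saline livers. Its groups overlapped, with a difference of -0.08 ± 0.19, and its lowest value was on saline replicate 1.

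**Figure D3:**
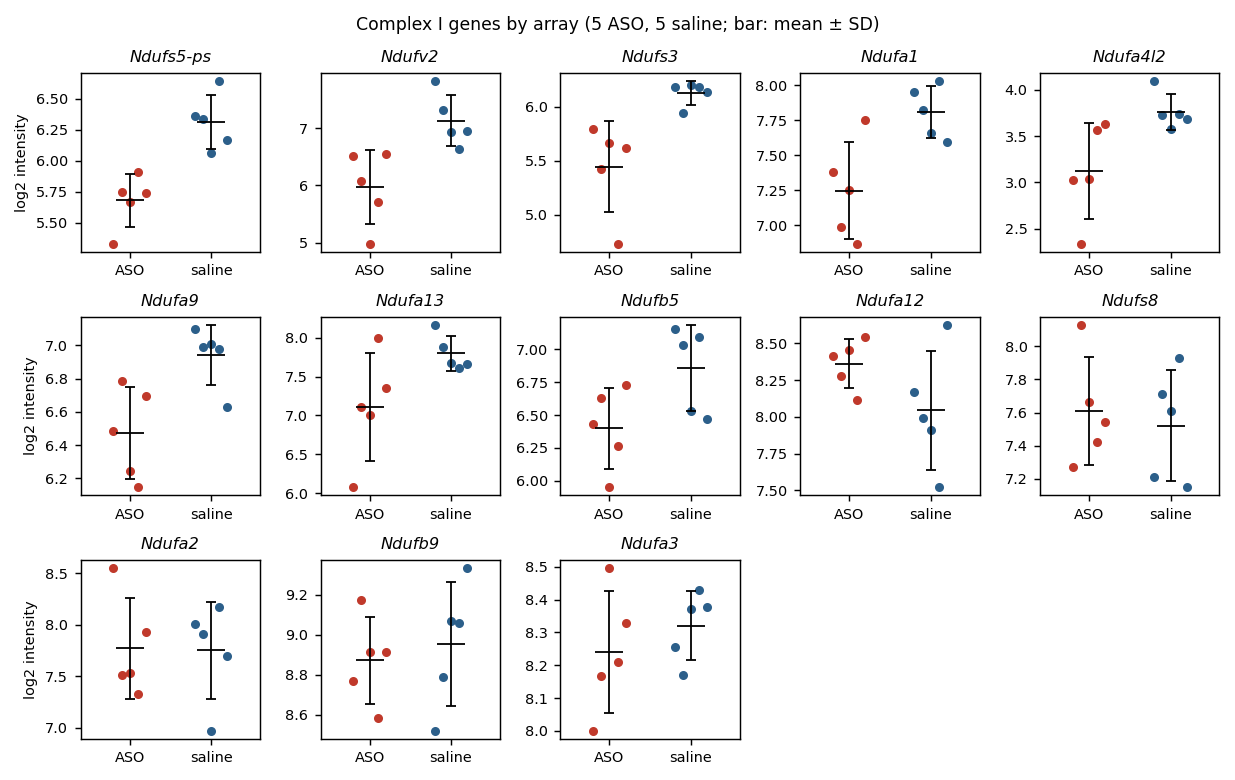
Log2 intensity (vertical axis, a separate scale in each panel) of 13 genes in the 5 ASO livers (red, left) and 5 saline livers (blue, right), with the mean and SD in black. Ndufs5-ps, Ndufv2 and Ndufs3 show groups that do not overlap, and in Ndufa12, Ndufs8, Ndufa2, Ndufb9 and Ndufa3 the groups lie across each other.

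The other 2 genes of the name pattern had differences close to each other and below the median of the 29 subunits (-0.35). Ndufs5-ps had 5.33, 5.75, 5.67, 5.91 and 5.74 in ASO livers, against 6.36, 6.34, 6.06, 6.64 and 6.17 in saline livers. The groups did not overlap, and the difference of -0.63 ± 0.17 had the smallest adjusted p of the 31 genes (SE, limma adjusted p = 0.237). Whether its probe reports the pseudogene or the near-identical transcript of Ndufs5 is uncertain, since the probe sequence was not used here. Ndufa4l2, a gene induced by low oxygen in other tissues, had 3.03, 2.34, 3.04, 3.56 and 3.63 in ASO livers, against 4.09, 3.73, 3.57, 3.74 and 3.68 in saline livers. ASO replicates 4 and 5 lay close to the saline values and the other 3 below them, with a difference of -0.64 ± 0.24 (SE, limma adjusted p = 0.365).

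Genes that build complex I without being part of it were mixed. Of 14 measured assembly factors 10 were lower and 4 higher, with a median of -0.21. A total of 4 (28.6%) were lower at an unadjusted p under 0.05, against 6.66% of all probes and 11.3% of genes above the median probe level. Nubpl, which delivers iron-sulfur clusters to complex I, had 2.50, 2.79, 2.38, 2.45 and 2.60 in ASO livers, against 3.48, 3.18, 3.19, 3.14 and 2.83 in saline livers. Its groups did not overlap and differed by -0.62 ± 0.17 (SE, limma adjusted p = 0.235). Dmac2 differed by -0.79 ± 0.23 and Ndufaf7, an arginine methyltransferase that modifies a core subunit, by -0.61 ± 0.22. None of the 14 passed the adjusted threshold. Ndufab1, the mitochondrial acyl carrier protein that is also a complex I subunit but falls outside the name pattern, differed by 0.06 ± 0.18.

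Most genes of the other respiratory complexes also had a lower mean in ASO livers, and whether complex I differs from them was not tested. The median differences were -0.21 for complex II (4 of 4 lower), -0.26 for complex III (7 of 9), -0.56 for complex IV (12 of 12) and -0.47 for complex V (13 of 15). Single arrays moved these medians: leaving out 1 array gave -0.34 (without ASO replicate 5) to -0.12 (without ASO replicate 2) for complex II and -0.48 (without saline replicate 3) to -0.20 for complex III. Complex IV was at -0.34 without ASO replicate 1 and complex V at -0.29 without ASO replicate 2. Complex III was at -0.51 over probes above the median level, and complex II at -0.13 under cyclic loess. At an unadjusted p under 0.05, 0, 2, 5 and 6 genes of complexes II, III, IV and V were lower (0%, 22.2%, 41.7% and 40%) and 0, 0, 0 and 1 higher. Over all probes 6.66% were lower and 4.58% higher. Over the 913 genes matched to complex I levels, 10.8% were lower and 3.18% higher. Those genes were not matched to the other complexes, and complex III held probes down to -0.81. In complex II, Sdhb differed by -0.24 ± 0.16, Sdhd by -0.45 ± 0.37 and Sdhc by -0.18 ± 0.26. In complex III the values were -0.79 ± 0.18 for Uqcrfs1, the Rieske protein, -1.25 ± 0.42 for Uqcr11 and -0.67 ± 0.35 for Uqcrc2. In complex IV they were -1.06 ± 0.19 for Cox7a1, -0.95 ± 0.18 for Cox6a1 and -0.86 ± 0.23 for Cox5b. The Cox7a1 probe was dim, with a mean of 0.21 in log2 against a median probe level of 0.03, while Cox6a1 was at 8.33. In complex V, Atp5b differed by -1.08 ± 0.25 and Atp5o by -0.77 ± 0.21, while Atpif1, the inhibitor of ATP synthase, was higher by 0.77 ± 0.24.

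Enzymes that feed ubiquinone by other routes or carry reducing equivalents into mitochondria were lower in 11 of 12 genes, with a median of -0.52. Of the 12 genes 6 (50%) were lower at an unadjusted p under 0.05, against 6.66% of all probes and 11.3% of genes above the median probe level. Etfdh, which passes electrons from fatty acid oxidation to ubiquinone, differed by -1.94 ± 0.50, Etfa, its electron donor, by -0.91 ± 0.28, and Got1, of the malate-aspartate shuttle, by -1.59 ± 0.37. Abundant mitochondrial proteins outside the chain were lower in 16 of 17 genes, with a median of -0.42. Here 4 (23.5%) were lower and 1 higher at an unadjusted p under 0.05, against 6.66% and 4.58% of all probes. Of genes above the median probe level 11.3% were lower. Phb differed by -0.71 ± 0.23 and Tomm22, of the import pore, by -1.11 ± 0.36, while Immt, of the cristae junctions, was higher by 0.65 ± 0.21.

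Transcriptional regulators of respiratory genes had a median near 0 (-0.06), with 7 of 12 lower. Gabpa, the DNA-binding subunit of the ETS factor GABP, had 0.63, 0.12, -0.74, -0.48 and -0.03 in ASO livers, against 1.73, 1.01, 0.83, 0.64 and 1.18 in saline livers. Its groups did not overlap, by a narrow margin, and differed by -1.17 ± 0.28 (SE, limma adjusted p = 0.190). Gabpa was the 1 regulator lower at an unadjusted p under 0.05 (8.33%), against 6.66% of all probes and 11.3% of genes above the median probe level. Tfam, which packages mitochondrial DNA, differed by -0.27 ± 0.16 and Esrra by -0.29 ± 0.19. None of the genes of these related lists passed the adjusted threshold.

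**Figure D4:**
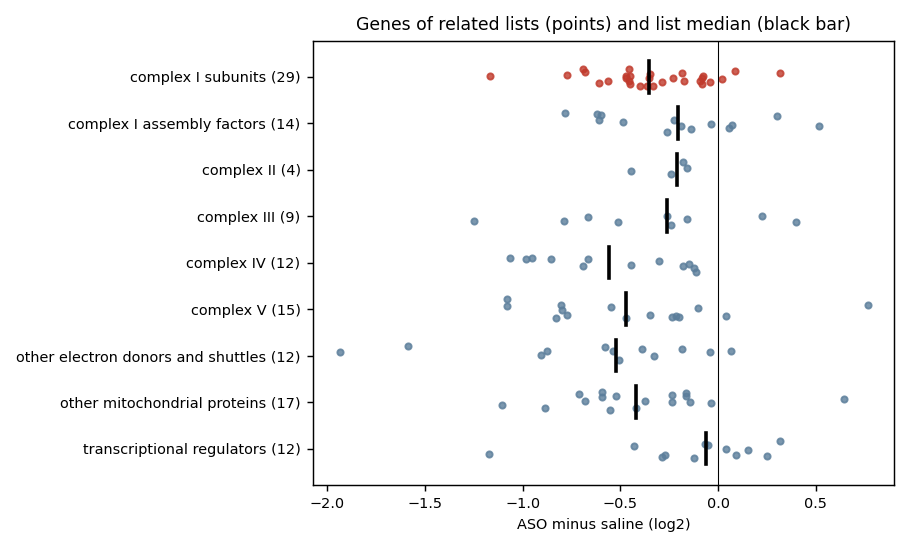
Difference of each gene, ASO minus saline, on the log2 scale (points, horizontal axis) in complex I and related lists, with the list median as a black bar and the number of genes in brackets. The medians run from -0.56 for complex IV to -0.06 for transcriptional regulators, and that of the 29 complex I subunits is -0.35.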

How the data were processed

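The deposited table held array intensities on a linear scale, with medians near 1 and some values below 0. Software, background subtraction and scaling were not given in the sources used here. Labelling followed the CodeLink assay per the labels. A probe needed at least 3 values in each group, which kept 36088 of 36227 probes and dropped 139. Intensities were raised to a floor at the 10th percentile of positive values (0.192, or -2.38 in log2) and then log2-transformed. Differences are ASO minus saline from limma 3.58.1 (lmFit, eBayes) in R 4.3.3 with two-sided p-values adjusted by Benjamini-Hochberg across the whole table. No batch was given, so no covariate was used. The number of arrays, 5 mice a group, limits the precision, and the spread between livers sets each gene's error.

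Probe annotation gave 1 symbol to 21615 probes, several to 681 and none to 13931, and 21487 of the first matched a RefSeq gene by Entrez ID. The members, the promoter motifs and the lists (modules, assembly factors, other complexes, related mitochondrial genes, cell markers) were chosen with earlier results of these data known. They are described by counts and medians, without a set test. A list of mitochondrially encoded subunits had no measured gene. Values on every array are given for the 8 members of smallest p, the 3 of highest difference, the 3 of highest mean and Ndufa4l2. From each related list up to 3 genes of smallest p were named. Ndufa4 has no value because its probe names a second gene.

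Alternatives were quantile and cyclic loess normalization, no floor, a pseudocount of 0.5, a filter to probes above the median level, a robust trended eBayes, array weights, averaging the probes of each gene, and leaving out each array. The procedure was also run on simulated data with known changes, and the share of these that it recovered is not given here.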

Additional observations from a re-analysis of the deposited data

Results flagged for a closer look

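In groups of 5, a single liver was marked where its gap to the nearest other divided by the group's range, exceeded Dixon's 95% critical value. Chance marks about 1 in 20 groups, and 4 of the 62 groups examined here were marked, all in saline livers and all for a low value. In Ndufv1 saline replicate 5 was at 4.38, with the nearest at 6.28 (gap ratio 0.782). In Ndufa8 saline replicate 3 was at 6.17, with the nearest at 7.001 (0.761). In Ndufs3 saline replicate 2 was at 5.94, with the nearest at 6.13 (0.756), which is the smallest gap of the 4. In Ndufa9 saline replicate 5 was at 6.63, with the nearest at 6.98 (0.741).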

How the results depend on the processing

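The labels give no replicate numbers, and those used here follow the order of the sample titles. The groups were separate mice with no pairing given, so no paired analysis was run. Over 18 alternatives and 31 genes, 539 of 558 values kept the direction and stayed past no threshold, and 19 turned direction, all in genes within 0.10 of 0. The smallest adjusted p in any alternative was 0.118 (Ndufv2, probes above the median level). Under quantile normalization Ndufs7 was 0.096, Ndufc2 0.16 and the regulator median 0.0051, with 5 genes higher and 1 with groups apart below. Under cyclic loess Ndufb4 was 0.010, Ndufs7 0.013 and Ndufc2 0.068, with 6 genes higher. With the pseudocount, 13 genes were lower at an unadjusted p under 0.05, where 7.29% of all probes were. Leaving out single arrays gave -0.26 to 0.12 for Ndufc2, -0.18 to 0.13 for Ndufa2, -0.044 to 0.19 for Ndufs8, -0.25 to 0.10 for Ndufs7, -0.19 to 0.012 for Ndufb9 and -0.16 to 0.020 for Ndufb4. It gave 2 to 5 genes higher, 3 to 7 with groups apart below, and a proximal membrane arm median of -0.41 to -0.12. At an unadjusted p under 0.05 it gave 5 to 12 genes lower and 0 to 1 higher. Of all probes 4.61% to 8.42% were then lower at that p. Shares of all probes with groups apart were not counted for the alternatives. The causes were not tested. The median over the 31 genes stayed between -0.47 and -0.26 in all alternatives. With the 10-letter NRF1 motif, added after seeing the data, the highest difference among genes with a match was -0.0783 (Ndufb4) in place of 0.32 (Ndufa12). Without single arrays Ndufb7 reached -0.61 (saline replicate 3), Ndufa3 ran from -0.14 to -0.021, and the regulator median from -0.14 to -0.011.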
